A study of Mus musculus with 12 samples.

Results

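Receptor chains for the cytokines that sustain myeloid cells in culture were followed in mouse bone marrow cells that carried retroviral Hoxa9 with or without Meis1. The set was 8 genes, of 20711 genes tested, chosen by name with earlier results of these data known. They were Il6ra and Il6st for IL6, Csf3r for G-CSF, Il3ra, Csf2ra, Csf2rb and Csf2rb2 for IL3 and GM-CSF, and Il7r for IL7. Each gene was measured on Affymetrix mouse exon arrays by the probe sets that named it and no other gene. There were 125 such probe sets for the 8 genes, and 114 of them lay above a dim level of 6.26 (log2), the median of all probe sets. All 8 genes kept at least 5 probe sets and were tested.

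HOXA9+MEIS1 cells carried Hoxa9 and Meis1, HOXA9+MDHD cells carried Hoxa9 and Meis1 without its homeodomain, and HOXA9+MIY cells carried Hoxa9 and the empty MIY vector. Each condition had 4 arrays, 2 from week 4 and 2 from week 3 of culture. The cells were marrow progenitors of female C57B/6 mice, 12 weeks old and treated with 5-FU, a drug that depletes cycling marrow cells. They were transduced with MSCV retroviral constructs and grown in DMEM with fetal calf serum, IL3, SCF and IL6. All 12 arrays therefore share the Hoxa9 vector and the added IL3 and IL6, and no condition lacked either. The design text speaks of independent experiments, but whether the arrays of the 2 weeks came from the same cultures is not stated. The p-values measure the spread between these arrays.

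The vectors were checked first. Hoxa9 averaged 13.37 ± 0.0797 on the HOXA9+MEIS1 arrays, 13.35 ± 0.123 on the HOXA9+MDHD arrays and 13.29 ± 0.0589 on the HOXA9+MIY arrays (log2, SD, n = 4 each), with no call between conditions. Meis1 averaged 9.71 ± 0.0924 and 9.43 ± 0.283 in the HOXA9+MEIS1 and HOXA9+MDHD cells, against 6.84 ± 0.0842 in HOXA9+MIY cells. One HOXA9+MDHD array, replicate 2 of week 4, stood apart on monocyte and macrophage markers. Its mean over these 14 markers was 10.02 (log2), against 9.17 to 9.29 on the other HOXA9+MDHD arrays. Its mean over 14 late neutrophil markers was also the highest, at 9.99, but the others were themselves spread, at 8.27, 8.82 and 9.38. For Il6ra, Il6st, Csf3r, Csf2ra, Il3ra and Il7r, differences that involve HOXA9+MDHD cells are therefore also given without this array. It was picked by its marker values, and it also held the highest HOXA9+MDHD value of Il6ra, Csf3r, Csf2ra, Il3ra and Il7r. For Il6st it was the higher of the HOXA9+MDHD arrays of week 4. Leaving it out lowers the HOXA9+MDHD level of these genes, so larger falls and smaller adjusted p without it are no independent support. The labels name a bone marrow progenitor culture, and 5 primary granule genes, which mark immature granulocytic cells, had a mean of 12.48 to 13.37 on the 12 arrays, above the dim level. B lymphoid and early lymphoid markers had a mean of 6.99 to 7.24.

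These receptors are built from paired chains without a kinase of their own, and they signal through JAK kinases and STAT transcription factors bound to their tails. IL3 and GM-CSF each have a private alpha chain that pairs with the common beta chain, and mice carry an additional beta chain that serves IL3 alone. IL6 first binds its own receptor chain and the pair then engages gp130, a signalling chain shared with LIF, oncostatin M and IL11. The G-CSF receptor pairs with itself and drives neutrophil production, whereas the IL7 receptor is known chiefly from early lymphocytes.

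In HOXA9+MEIS1 cells both IL6 receptor chains, the G-CSF receptor and the private chain of the GM-CSF receptor were lower than in HOXA9+MIY cells. Il3ra, both beta chains and Il7r did not pass the test. Il6st stood at 35.4%, Il6ra at 46.1%, Csf2ra at 52.4% and Csf3r at 55.8% of the HOXA9+MIY level. Of the 8 genes these 4 were called and all 4 were lower, beside 10.8% of all genes called and 5.55% called lower (limma, Benjamini-Hochberg adjusted p under 0.05). In HOXA9+MDHD cells the same 4 genes were called lower, at 51.0% for Il6st, 69.7% for Il6ra, 69.4% for Csf2ra and 65.4% for Csf3r. In that comparison 1.91% of all genes were called and 0.999% were lower. All 4 arrays lay below all 4 HOXA9+MIY arrays for these 4 genes in HOXA9+MEIS1 cells, as for 5.96% of all genes, and for 3 of them, without Il6st, in HOXA9+MDHD cells, as for 2.56% of all genes. Both comparisons share the HOXA9+MIY arrays, and 0.826% of all genes were called lower in both. The median log2 difference of the 8 genes was -0.56 in HOXA9+MEIS1 cells, beside -0.0056 for all genes, and -0.29 in HOXA9+MDHD cells, beside -0.013 for all genes. Because the 8 genes were chosen with earlier results of these data known, these shares and medians describe the set and do not test it. In bulk RNA, fewer cells that express a receptor and less of its RNA per cell cannot be told apart.

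**Figure D1:**
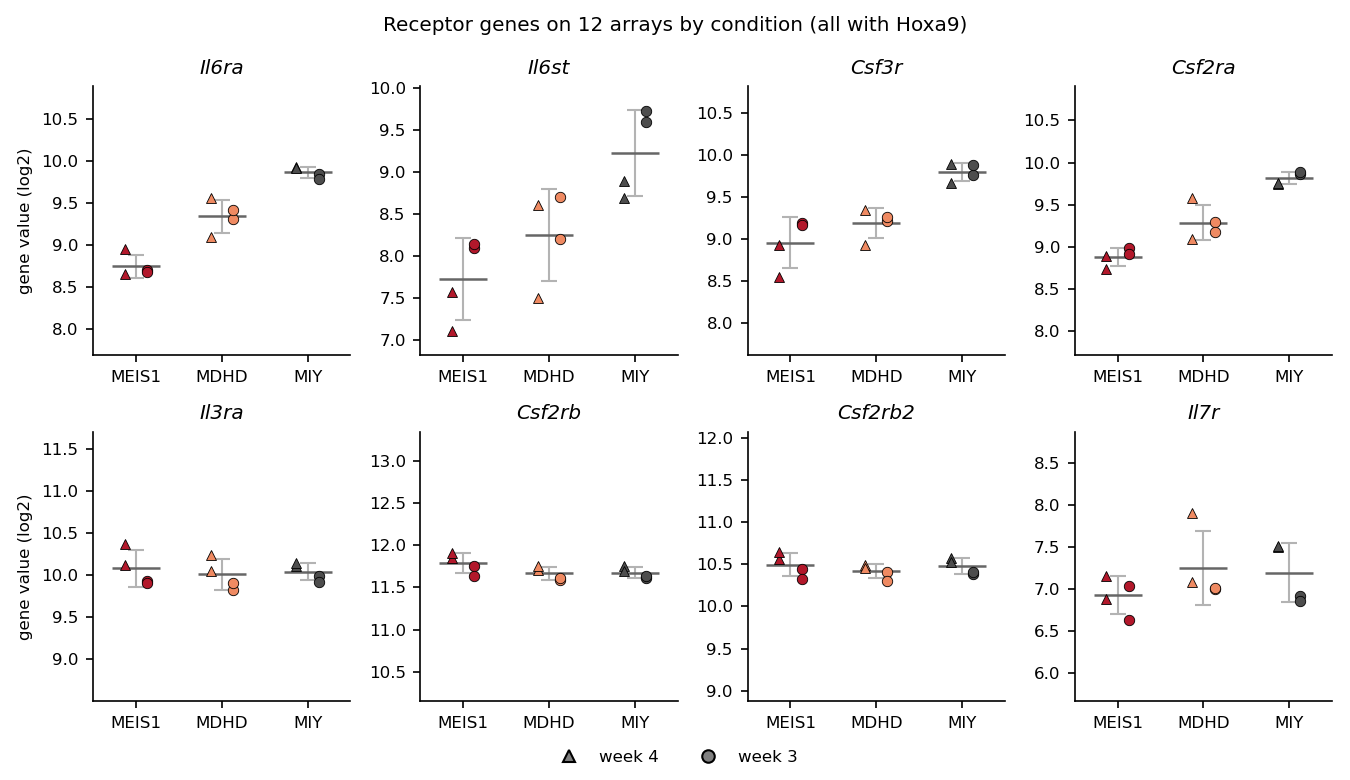
Gene value (log2) of the 8 receptor genes on each of the 12 arrays, with conditions from left to right HOXA9+MEIS1, HOXA9+MDHD and HOXA9+MIY. Triangles are week 4 arrays, circles week 3 arrays, the horizontal line is the mean and the bar the SD of 4 arrays, and each axis spans the same number of log2 units. Il6ra, Il6st, Csf3r and Csf2ra are lower in HOXA9+MEIS1 cells on all 4 arrays, whereas Il3ra, Csf2rb, Csf2rb2 and Il7r overlap between conditions.

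The promoters of the 4 genes that were lower are shown because these genes were called lower in both comparisons with HOXA9+MIY. Each runs from 250 bases before to 50 bases after a RefSeq start (build GRCm38.p6) on the gene's strand. For Il6ra and Il6st this start is the outer end of the RefSeq gene. For Csf3r the whole window lies inside the gene, which begins at 126023441. For Csf2ra the start also lies inside the gene, whose outer end is 61228461. RefSeq promoters were matched for 7 of the 8 genes and not for Csf2rb. Capitals mark the searched motifs on either strand, which were TGACAG for Meis factors, TTCNNNGAA for STAT factors and GAGGAA for PU.1, a myeloid master regulator. No matches overlapped. The Il6ra promoter is chr3:89913147-89913446 (minus strand), the Il6st promoter chr13:112463820-112464119 (plus strand), the Csf3r promoter chr4:126024409-126024708 (plus strand) and the Csf2ra promoter chr19:61228369-61228668 (minus strand).
Il6ra: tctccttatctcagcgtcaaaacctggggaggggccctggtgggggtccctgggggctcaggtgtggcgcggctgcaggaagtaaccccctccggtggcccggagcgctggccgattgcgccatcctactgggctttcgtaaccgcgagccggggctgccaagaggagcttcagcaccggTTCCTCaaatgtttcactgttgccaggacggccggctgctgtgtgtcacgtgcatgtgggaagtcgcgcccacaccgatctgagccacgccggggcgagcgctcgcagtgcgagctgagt
Il6st: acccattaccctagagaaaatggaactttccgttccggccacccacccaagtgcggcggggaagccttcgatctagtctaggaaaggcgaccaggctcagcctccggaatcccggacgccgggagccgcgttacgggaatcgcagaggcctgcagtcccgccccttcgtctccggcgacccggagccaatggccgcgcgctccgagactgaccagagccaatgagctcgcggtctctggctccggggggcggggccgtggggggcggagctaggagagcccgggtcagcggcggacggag
Csf3r: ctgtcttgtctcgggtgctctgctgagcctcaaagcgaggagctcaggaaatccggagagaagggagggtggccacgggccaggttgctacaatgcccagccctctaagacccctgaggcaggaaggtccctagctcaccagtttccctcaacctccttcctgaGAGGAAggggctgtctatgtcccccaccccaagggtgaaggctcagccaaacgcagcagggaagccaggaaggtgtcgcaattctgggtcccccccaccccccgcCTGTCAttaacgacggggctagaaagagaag
Csf2ra: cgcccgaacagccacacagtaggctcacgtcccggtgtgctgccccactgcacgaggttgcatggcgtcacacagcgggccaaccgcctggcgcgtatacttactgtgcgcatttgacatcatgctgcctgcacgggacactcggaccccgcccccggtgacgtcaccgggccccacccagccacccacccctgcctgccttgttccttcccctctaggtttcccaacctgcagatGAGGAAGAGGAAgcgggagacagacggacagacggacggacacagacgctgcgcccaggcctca

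Il6ra held 1 PU.1 match at bases -70 to -65 from the start, and Csf2ra held 2 side by side, at -14 to -9 and -8 to -3. Csf3r held a PU.1 match at -86 to -81 and a Meis match at 19 to 24, in a window that lies inside the gene. Il6st held none of the 3 motifs in this window. Of all 32851 RefSeq promoters of this length, 28.3% held the PU.1 motif, 19.2% the Meis motif and 8.3% the STAT motif. Of the genes that were not called, Il7r and Csf2rb2 each held 1 STAT match, Csf2rb2 also held 2 PU.1 matches, and Il3ra held none.

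Il6ra encodes the chain that binds IL6, one of the cytokines in the medium. Its value was 8.66 and 8.96 at week 4 and 8.70 and 8.68 at week 3 in HOXA9+MEIS1 cells. In HOXA9+MDHD cells it was 9.09 and 9.56 at week 4 and 9.31 and 9.42 at week 3, against 9.92 and 9.92 at week 4 and 9.84 and 9.78 at week 3 in HOXA9+MIY cells. The 3 conditions did not overlap, with HOXA9+MEIS1 lowest and HOXA9+MIY highest, an order that 0.328% of all genes shared. The log2 difference from HOXA9+MIY was -1.12 ± 0.0952 (SE) in HOXA9+MEIS1 cells, 2.17-fold lower (limma adjusted p = 1.39e-05). In HOXA9+MDHD cells it was -0.52 ± 0.0952, 1.44-fold lower (limma adjusted p = 0.0176), and -0.59 without the array that stood apart (limma adjusted p = 0.00386). Between the constructs, HOXA9+MEIS1 was lower than HOXA9+MDHD by a log2 difference of -0.60 ± 0.0952 (limma adjusted p = 0.0034), and by -0.53 without that array (limma adjusted p = 0.008). In this comparison 4.36% of all genes were called and 2.12% were lower. In 2.53% of all genes the HOXA9+MEIS1 arrays all lay below the HOXA9+MDHD arrays, and 2 of the 8 receptor genes, Il6ra and Csf2ra, did so.

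Il6st encodes gp130, the signalling chain that Il6ra and the receptors of several related cytokines share. It read 7.11 and 7.57 at week 4 and 8.09 and 8.14 at week 3 in HOXA9+MEIS1 cells. HOXA9+MDHD cells gave 7.50 and 8.61 at week 4 and 8.20 and 8.69 at week 3, against 8.69 and 8.89 at week 4 and 9.58 and 9.73 at week 3 in HOXA9+MIY cells. All 4 HOXA9+MEIS1 arrays lay below all 4 HOXA9+MIY arrays, whereas HOXA9+MDHD overlapped both. The difference from HOXA9+MIY was -1.50 ± 0.208 in HOXA9+MEIS1 cells, 2.82-fold lower (limma adjusted p = 0.000485). It held its direction within each week, at -1.45 (limma adjusted p = 0.0557) over the week 4 arrays alone and -1.54 (limma adjusted p = 0.00343) over the week 3 arrays alone. In HOXA9+MDHD cells the difference was -0.97 ± 0.208, 1.96-fold lower (limma adjusted p = 0.0359), and -1.23 without the array that stood apart (limma adjusted p = 0.00031). This call was lost in 14 of 25 alternatives, among them eBayes without trend (limma adjusted p = 0.052). Between HOXA9+MEIS1 and HOXA9+MDHD the difference of -0.52, with a 95% interval of -0.98 to -0.072, was not called (limma adjusted p = 0.231). Without the array that stood apart it was -0.26 (limma adjusted p = 0.371).

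Csf3r encodes the receptor of G-CSF, the main cytokine of neutrophil production, which is not listed in the medium. Values were 8.54 and 8.92 at week 4 and 9.19 and 9.17 at week 3 in HOXA9+MEIS1 cells. They were 8.93 and 9.34 at week 4 and 9.21 and 9.26 at week 3 in HOXA9+MDHD cells, against 9.89 and 9.66 at week 4 and 9.76 and 9.88 at week 3 in HOXA9+MIY cells. Both Meis1 conditions lay wholly below HOXA9+MIY and overlapped each other. The difference from HOXA9+MIY was -0.84 ± 0.117 in HOXA9+MEIS1 cells, 1.79-fold lower (limma adjusted p = 0.000487). It was -0.61 ± 0.117 in HOXA9+MDHD cells, 1.53-fold lower (limma adjusted p = 0.0221), and -0.71 without the array that stood apart (limma adjusted p = 0.00319). HOXA9+MEIS1 minus HOXA9+MDHD was -0.23, with a 95% interval of -0.48 to 0.026 (limma adjusted p = 0.396), and -0.13 without that array (limma adjusted p = 0.676).

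Csf2ra encodes the private chain of the GM-CSF receptor. On the HOXA9+MEIS1 arrays it read 8.73 and 8.88 at week 4 and 8.99 and 8.92 at week 3. The HOXA9+MDHD arrays gave 9.10 and 9.57 at week 4 and 9.29 and 9.18 at week 3, against 9.75 and 9.76 at week 4 and 9.86 and 9.89 at week 3 on the HOXA9+MIY arrays. As for Il6ra, the conditions did not overlap and HOXA9+MEIS1 was lowest. The difference from HOXA9+MIY was -0.93 ± 0.0944 in HOXA9+MEIS1 cells, 1.91-fold lower (limma adjusted p = 5.05e-05). It was -0.53 ± 0.0944 in HOXA9+MDHD cells, 1.44-fold lower (limma adjusted p = 0.0166), and -0.65 without the array that stood apart (limma adjusted p = 0.000146). HOXA9+MEIS1 minus HOXA9+MDHD was -0.41 ± 0.0944 (limma adjusted p = 0.03), and -0.29 without that array (limma adjusted p = 0.0185).

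None of the 4 falls in HOXA9+MEIS1 against HOXA9+MIY cells lost its call when any 1 array was left out, but those in HOXA9+MDHD cells did. For Il6st, leaving out any 1 of 10 of the 12 arrays ended the call, with differences between -1.05 and -0.82 and adjusted p of 0.0506 to 0.113. For Csf3r, 6 arrays did so, 3 of HOXA9+MDHD (both of week 3 and replicate 1 of week 4) and 3 of HOXA9+MIY (both of week 4 and replicate 2 of week 3), with differences of -0.63 to -0.54 and adjusted p of 0.0558 to 0.0796. For Csf2ra, 3 arrays did so, replicate 1 of week 4 in HOXA9+MDHD and both week 3 arrays of HOXA9+MIY (-0.52 to -0.47, adjusted p 0.0527 to 0.0617). For Il6ra, 3 HOXA9+MIY arrays did so, both of week 4 and replicate 1 of week 3 (-0.52 to -0.51, adjusted p 0.0558 to 0.0637). The Csf2ra difference between HOXA9+MEIS1 and HOXA9+MDHD lost its call without any 1 of the 4 HOXA9+MEIS1 arrays or without replicate 1 of week 3 in HOXA9+MDHD (-0.44 to -0.36, adjusted p 0.0538 to 0.096).

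Il3ra, the private chain of the receptor for IL3, gave no call between conditions. It read 10.38 and 10.12 at week 4 and 9.93 and 9.91 at week 3 in HOXA9+MEIS1 cells, and 10.06 and 10.25 at week 4 and 9.83 and 9.91 at week 3 in HOXA9+MDHD cells. In HOXA9+MIY cells it was 10.11 and 10.14 at week 4 and 9.99 and 9.93 at week 3, so that all 3 conditions overlapped. The difference from HOXA9+MIY was 0.041 in HOXA9+MEIS1 cells, with a 95% interval of -0.11 to 0.19 (limma adjusted p = 0.814). In HOXA9+MDHD cells it was -0.032, with an interval of -0.18 to 0.11 (limma adjusted p = 0.902), and -0.071 without the array that stood apart (limma adjusted p = 0.702).

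Csf2rb encodes the common beta chain of the IL3, GM-CSF and IL5 receptors. It read 11.85 and 11.90 at week 4 and 11.76 and 11.64 at week 3 in HOXA9+MEIS1 cells, and 11.71 and 11.76 at week 4 and 11.59 and 11.61 at week 3 in HOXA9+MDHD cells. HOXA9+MIY cells gave 11.76 and 11.70 at week 4 and 11.61 and 11.63 at week 3, overlapping both. The difference from HOXA9+MIY was 0.11 in HOXA9+MEIS1 cells, with an interval of 0.030 to 0.20 (limma adjusted p = 0.0861). It was called when each array was centred on its median (0.13, limma adjusted p = 0.044) or without replicate 2 of week 3 in HOXA9+MEIS1 (0.14, limma adjusted p = 0.0396). It was -0.0077 in HOXA9+MDHD cells, with an interval of -0.091 to 0.075.

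Csf2rb2 encodes the mouse beta chain for IL3 alone. It read 10.57 and 10.64 at week 4 and 10.45 and 10.33 at week 3 in HOXA9+MEIS1 cells. HOXA9+MDHD cells gave 10.49 and 10.46 at week 4 and 10.41 and 10.30 at week 3, against 10.58 and 10.53 at week 4 and 10.39 and 10.41 at week 3 in HOXA9+MIY cells. The conditions overlapped, and the difference from HOXA9+MIY was 0.020 (interval -0.087 to 0.13) in HOXA9+MEIS1 and -0.060 (interval -0.17 to 0.046) in HOXA9+MDHD cells. A further 14 probe sets named both Csf2rb and Csf2rb2, which resemble each other, and were kept out of the gene values. None of the 14 was called between conditions, and their HOXA9+MEIS1 minus HOXA9+MIY differences ran from 0.052 to 0.32.

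Il7r, the alpha chain of the IL7 and TSLP receptors, kept 5 of its 12 probe sets above the dim level. Its values lay around the B lymphoid and early lymphoid marker means of 6.99 to 7.24, and expression of Il7r above background was not tested. It read 7.16 and 6.89 at week 4 and 6.63 and 7.03 at week 3 in HOXA9+MEIS1 cells. It was 7.08 and 7.91 at week 4 and 7.00 and 7.01 at week 3 in HOXA9+MDHD cells, against 7.50 and 7.51 at week 4 and 6.92 and 6.86 at week 3 in HOXA9+MIY cells. The conditions overlapped and the differences from HOXA9+MIY were -0.27 (interval -0.62 to 0.078) in HOXA9+MEIS1 and 0.054 (interval -0.29 to 0.40) in HOXA9+MDHD cells. Without the HOXA9+MDHD array that stood apart, which held the highest value, the HOXA9+MDHD difference was -0.11 (limma adjusted p = 0.761). Of 10 B lymphoid and early lymphoid markers, 1 was called lower in HOXA9+MEIS1 than in HOXA9+MIY cells, and of 11 T, NK and innate lymphoid markers 2 were called higher. In this comparison 10.8% of all genes were called, so these counts are no result about lymphoid cells.

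**Figure D2:**
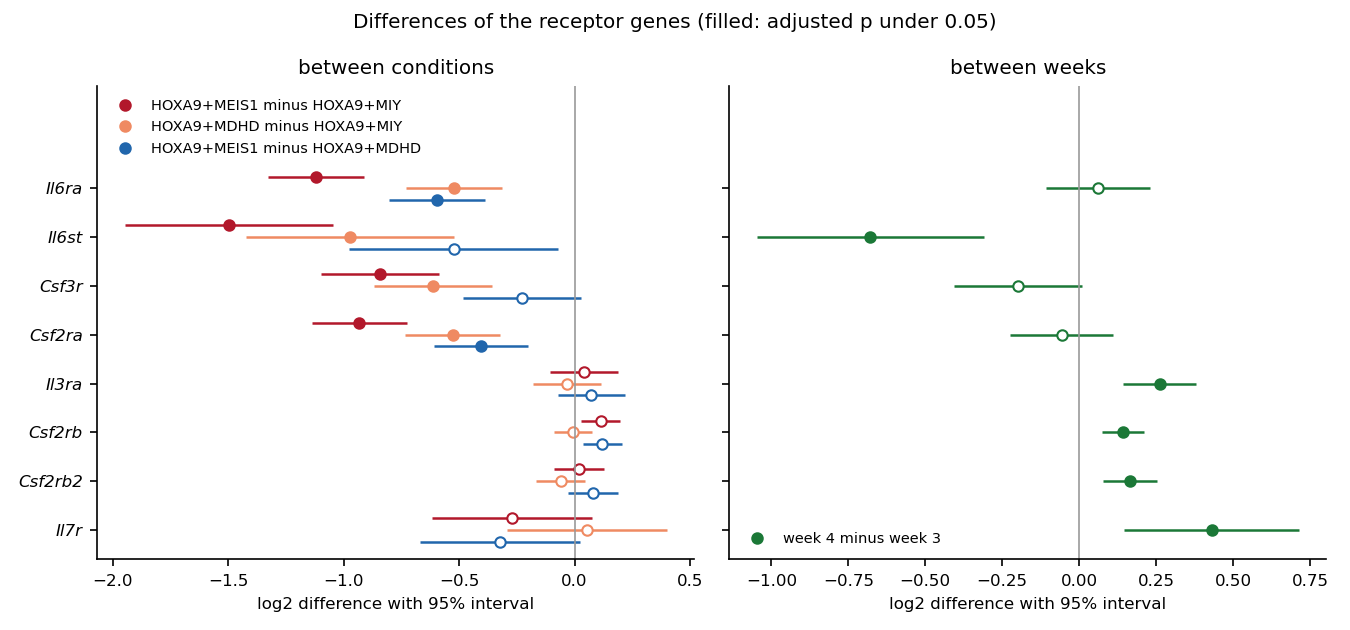
Log2 differences of the 8 receptor genes with 95% intervals from limma, between conditions on the left and week 4 minus week 3 on the right. Filled points have an adjusted p under 0.05. Il6ra, Il6st, Csf3r and Csf2ra lie below 0 in both comparisons with HOXA9+MIY, and Il3ra, Csf2rb and Csf2rb2 lie within 0.12 of it.

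The single probe sets were read to see whether the gene values spoke for the whole of each gene. Of the 125 probe sets, 62 were called in HOXA9+MEIS1 against HOXA9+MIY cells and all 62 were lower, beside 6.7% of all 318760 probe sets called and 3.5% lower. For Csf3r 24 of 26 probe sets were lower, for Il6ra 13 of 14, for Csf2ra 6 of 7 and for Il6st 15 of the 16 above the dim level. Probe set 4800010 of Il6ra had a difference of -1.86 (limma adjusted p = 1.49e-07) and probe set 4729779 of the same gene -0.14 (limma adjusted p = 0.681). Within Il6st, 4793752 averaged 6.19 in HOXA9+MEIS1 cells, under the dim level, against 8.07 in HOXA9+MIY cells, so that no exact difference is given for it. In the same gene 4645451 gave 0.071 (limma adjusted p = 0.787) and had a mean of 9.36, well above the dim level. Within Csf3r the range was -1.14 for 5404697 (limma adjusted p = 7.79e-05) to 0.16 for 4549224, the dimmest of its probe sets with a mean of 6.57. Csf2ra ran from -1.40 for 5368585 (limma adjusted p = 3.11e-06) to -0.49 for 4946243 (limma adjusted p = 0.00702).

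Among the genes with no call, 25 of the 27 Csf2rb probe sets above the dim level had a positive difference. The highest was 0.25 for 4324771, and none of the 27 was called. For Csf2rb2 none of 8 was called. Il3ra had an exception, probe set 4798185, at 10.84 in HOXA9+MEIS1, 11.25 in HOXA9+MDHD and 11.30 in HOXA9+MIY cells. Its HOXA9+MEIS1 minus HOXA9+MIY difference was -0.46 ± 0.0962 (limma adjusted p = 0.00627), whereas the other 10 probe sets of Il3ra were not called and the highest stood at 0.19. Il7r had 1 called probe set of 12, 5219687, which was below the dim level in all conditions (mean 4.82) and so carries no fold. Where along the genes these probe sets lie was not used here.

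In HOXA9+MDHD against HOXA9+MIY cells, 39 of the 125 probe sets were called and all were lower, beside 1.22% of all probe sets called and 0.534% lower. They comprised 19 of Csf3r, 8 of Il6ra, 4 of Csf2ra and 8 of Il6st, of which 1 was dim. Between HOXA9+MEIS1 and HOXA9+MDHD cells 13 were called, beside 2.78% of all probe sets, of which 1.24% were higher and 1.53% lower. They were 9 of Il6ra, 2 of Csf2ra and 1 of Il3ra, all lower, and 1 of Csf2rb, which was higher. A further 3 probe sets named both Il6ra and A430078G23Rik and were kept out of the gene value. They did not follow Il6ra: their HOXA9+MEIS1 minus HOXA9+MIY differences ran from -0.022 to 0.0004, with no call, although their levels of 12.12 to 12.36 were well above the dim level.

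**Figure D3:**
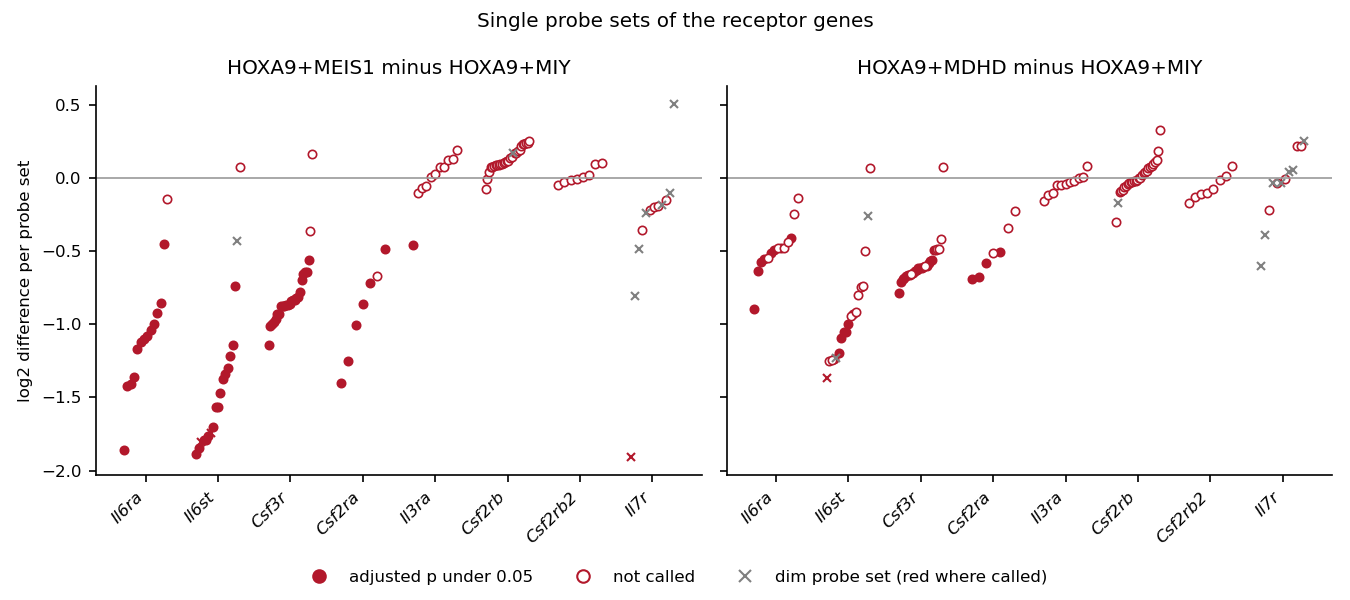
Log2 difference of every probe set that names only 1 of the 8 receptor genes, HOXA9+MEIS1 minus HOXA9+MIY on the left and HOXA9+MDHD minus HOXA9+MIY on the right. Within a gene the probe sets are ordered by their difference, filled circles have an adjusted p under 0.05, and crosses are dim probe sets, red where called. Nearly all probe sets of Csf3r, Il6ra, Il6st and Csf2ra are below 0, with 1 probe set of Il6st and 1 of Csf3r above it in each panel.

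Between the weeks 5 of the 8 genes were called, where 39.8% of all genes were. Of all genes 11.7% were higher and 28.1% lower at week 4. The share of rises among all calls was 29.4%, but 33.0% after quantile normalization, 59.0% after median centring and 51.2% after cyclic loess. Il3ra, Csf2rb, Csf2rb2 and Il7r were higher at week 4 and Il6st was lower. For the IL3 receptor chains and Il6st the call and direction were the same in all 22 alternatives, these scalings included. The size was not: cyclic loess gave 0.47 for Il3ra, 0.28 for Csf2rb and 0.37 for Csf2rb2, each over 1.5 times the difference given here.

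Il3ra had a lowest, median and highest value of 10.06, 10.13 and 10.38 on the 6 week 4 arrays, against 9.83, 9.92 and 9.99 on the 6 week 3 arrays. The weeks did not overlap, and the difference was 0.26 ± 0.0548 (limma adjusted p = 0.00191). Csf2rb2 gave 10.46, 10.55 and 10.64 at week 4, against 10.30, 10.40 and 10.45 at week 3, also apart, with a difference of 0.16 ± 0.0399 (limma adjusted p = 0.00508). Csf2rb gave 11.70, 11.76 and 11.90 at week 4, against 11.59, 11.62 and 11.76 at week 3, and differed by 0.14 ± 0.0311 (limma adjusted p = 0.00265). The beta chain weeks overlapped because 1 HOXA9+MEIS1 array of week 3 reached the week 4 range.

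Il6st gave 7.11, 8.09 and 8.89 at week 4, against 8.09, 8.45 and 9.73 at week 3, and the weeks overlapped. Within each condition its week 4 mean was lower, at 7.34 against 8.11 in HOXA9+MEIS1, 8.05 against 8.45 in HOXA9+MDHD and 8.79 against 9.66 in HOXA9+MIY cells. The difference over the conditions was -0.68 ± 0.169, lower at week 4 (limma adjusted p = 0.00615). Il7r gave 6.89, 7.33 and 7.91 at week 4, against 6.63, 6.96 and 7.03 at week 3, a difference of 0.43 ± 0.130 (limma adjusted p = 0.0186). These Il7r values lay around the B lymphoid and early lymphoid marker means, and expression above background was not tested. The Il7r call ended when dim probe sets were kept (0.47, limma adjusted p = 0.055).

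Il6ra (0.061), Csf2ra (-0.057) and Csf3r (-0.20) were not called between weeks. The 3 probe sets that named both Il6ra and A430078G23Rik, kept out of the Il6ra value, were all called higher at week 4. Their differences were 0.52 to 0.57 (limma adjusted p of 1.01e-05 to 2.33e-05). Without the HOXA9+MDHD array that stood apart, Csf2ra (-0.14, limma adjusted p = 0.0392) and Csf3r (-0.26, limma adjusted p = 0.033) were called lower at week 4. Il6ra was called higher after cyclic loess (0.27, limma adjusted p = 0.0276). Beside these values, 7 of 14 late neutrophil markers were called higher at week 4 and 4 of 10 mast cell and basophil markers lower. Of all genes 11.7% were higher and 28.1% lower, and the part of these markers in the results was not tested. Of the single probe sets 45 were called between weeks, beside 30.6% of all probe sets, of which 7.46% were higher and 23.2% lower. They were 7 of Il3ra, 10 of Csf2rb, 6 of Csf2rb2 and 1 of Il7r, which were higher at week 4, and 15 of Il6st and 6 of Csf3r, which were lower. No difference between conditions was shown to depend on the week. Of 24 interaction terms of the 8 genes none had an unadjusted p under 0.05, the lowest being 0.0932 for Csf3r in HOXA9+MEIS1 against HOXA9+MIY. limma called 0 of all genes, with 1345, 997 and 1551 genes at an unadjusted p under 0.05 in the 3 comparisons.

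The 4 receptor genes that were lower fell beside markers of mature myeloid cells. In HOXA9+MEIS1 against HOXA9+MIY cells 13 of 14 late neutrophil markers were called lower, and in HOXA9+MDHD against HOXA9+MIY cells 5 of 14. Of all genes 5.55% and 0.999% were called lower in these comparisons. The summed log2 level of the 14 ranged over 111.9 to 115.8 in HOXA9+MEIS1, 115.8 to 139.8 in HOXA9+MDHD and 135.7 to 148.1 in HOXA9+MIY cells. Of 14 monocyte and macrophage markers 10 were called lower and 1 higher in HOXA9+MEIS1 cells, and 3 lower and 1 higher in HOXA9+MDHD cells. Their sum ranged over 116.6 to 120.2 in HOXA9+MEIS1, 128.4 to 140.2 in HOXA9+MDHD and 137.5 to 139.2 in HOXA9+MIY cells. Only probe sets with a mean above the dim level were kept, so the level of a tested marker cannot show expression above background. The part of these cell types in the receptor differences was not tested.

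The genes whose 12 values ran closest to each receptor gene were found by the root mean square difference of the centred log2 values. Genes with clone, model or RNA names, such as Rik, Gm and LOC, were left out of this search. For Csf2ra they were Nedd9 (0.0917), Rassf3 (0.102) and Hvcn1 (0.119), and for Csf3r Hvcn1 (0.094), Prrg1 (0.118) and Trem3 (0.122). For Il6ra they were Aldh3b1 (0.139), Slc36a2 (0.14) and Arhgap24 (0.15). For Il6st they were more distant, Pilrb2 (0.243), Actn1 (0.303) and Megf9 (0.323). Hvcn1, which encodes a proton channel of phagocytes, was near both Csf2ra and Csf3r. Among the receptor genes themselves, Csf2ra lay 0.15 from Csf3r and 0.152 from Il6ra, whereas Il6st lay 0.425 to 0.473 from the other 3.

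Genes around the receptors were read as 4 lists. Beside their counts, 10.8% of all genes were called in HOXA9+MEIS1 against HOXA9+MIY cells. The share was 1.91% in HOXA9+MDHD against HOXA9+MIY cells and 4.36% between the constructs. Of 12 genes for ligands of these receptors and their relatives, 1 was called in HOXA9+MEIS1 against HOXA9+MIY cells. This was Tslp, a ligand of the Il7r chain, with a mean of 9.16 in HOXA9+MEIS1 and 7.52 in HOXA9+MDHD, against 7.64 in HOXA9+MIY cells. The difference was 1.52 ± 0.168 in HOXA9+MEIS1 cells, 2.87-fold higher (limma adjusted p = 9.24e-05), and -0.12 in HOXA9+MDHD cells (limma adjusted p = 0.844). The genes for the ligands of the called receptors, Il6, Csf3 and Csf2, and Il3 were not called. Condition means of Il6, Csf3 and Csf2 ran from 6.37 to 7.16, around or below the B lymphoid marker means, and expression above background was not tested.

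Of 21 genes listed as other class I cytokine receptors, 2 were called higher and 4 lower in HOXA9+MEIS1 against HOXA9+MIY cells, with a list median of -0.028. Among the 4 lower was Ebi3 (-0.28 ± 0.0827, limma adjusted p = 0.0486), which encodes a secreted cytokine subunit and not a receptor of the cell. Il13ra1, a chain of the IL13 and IL4 receptor, was 4.59-fold lower (-2.20 ± 0.188, limma adjusted p = 1.44e-05). Il12rb2, the signalling chain of the IL12 receptor, was 4.16-fold higher (2.06 ± 0.112, limma adjusted p = 4.82e-07). Lifr, the LIF receptor that pairs with gp130, was lower (-0.68 ± 0.131, limma adjusted p = 0.0046). Its means of 6.77 in HOXA9+MEIS1 and 7.45 in HOXA9+MIY cells lay around the B lymphoid marker means. Il4ra was lower by a difference of -0.42 ± 0.0588 (limma adjusted p = 0.000545). In HOXA9+MDHD against HOXA9+MIY cells 0 of the 21 were called, and Il13ra1 stood at -0.73 (limma adjusted p = 0.079). Between the constructs, Il12rb2 and Lepr were higher and Il13ra1, Lifr and Il4ra lower in HOXA9+MEIS1 than in HOXA9+MDHD cells.

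Of 14 genes of JAK-STAT and adaptor signalling, 3 were called higher and 3 lower in HOXA9+MEIS1 against HOXA9+MIY cells. Ptpn6, a phosphatase that restrains cytokine receptors, had the largest fall (-0.37 ± 0.0766, limma adjusted p = 0.00717), followed by the adaptor Shc1 (-0.31 ± 0.0656, limma adjusted p = 0.00789). The adaptor Gab2 was higher (0.35 ± 0.0806, limma adjusted p = 0.0145), and so was Sos1 (0.28 ± 0.0631, limma adjusted p = 0.0112). None of the 14 was called in HOXA9+MDHD against HOXA9+MIY cells.

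Of 15 feedback and target genes of cytokine signalling, 1 was called higher and 3 lower in HOXA9+MEIS1 against HOXA9+MIY cells. Bcl6, a transcriptional repressor, averaged 6.48 in HOXA9+MEIS1 and 7.51 in HOXA9+MDHD, against 8.18 in HOXA9+MIY cells. Its difference from HOXA9+MIY was -1.70 ± 0.105 (limma adjusted p = 1.2e-06) in HOXA9+MEIS1 and -0.67 ± 0.105 (limma adjusted p = 0.0082) in HOXA9+MDHD cells. Socs3, which inhibits signalling from gp130 and the G-CSF receptor, averaged 8.58 and 8.83 in the HOXA9+MEIS1 and HOXA9+MDHD cells, against 9.36 in HOXA9+MIY cells. Its differences were -0.79 ± 0.106 (limma adjusted p = 0.000385) in HOXA9+MEIS1 and -0.53 ± 0.106 (limma adjusted p = 0.0264) in HOXA9+MDHD cells. Pim2, a survival kinase, was higher in HOXA9+MEIS1 cells (0.77 ± 0.175, limma adjusted p = 0.0133), and Ccnd3 was lower by a difference of -0.18. Cish, Socs1 and Socs2, the other cytokine-induced inhibitors in the list, were not called in either comparison.

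**Figure D4:**
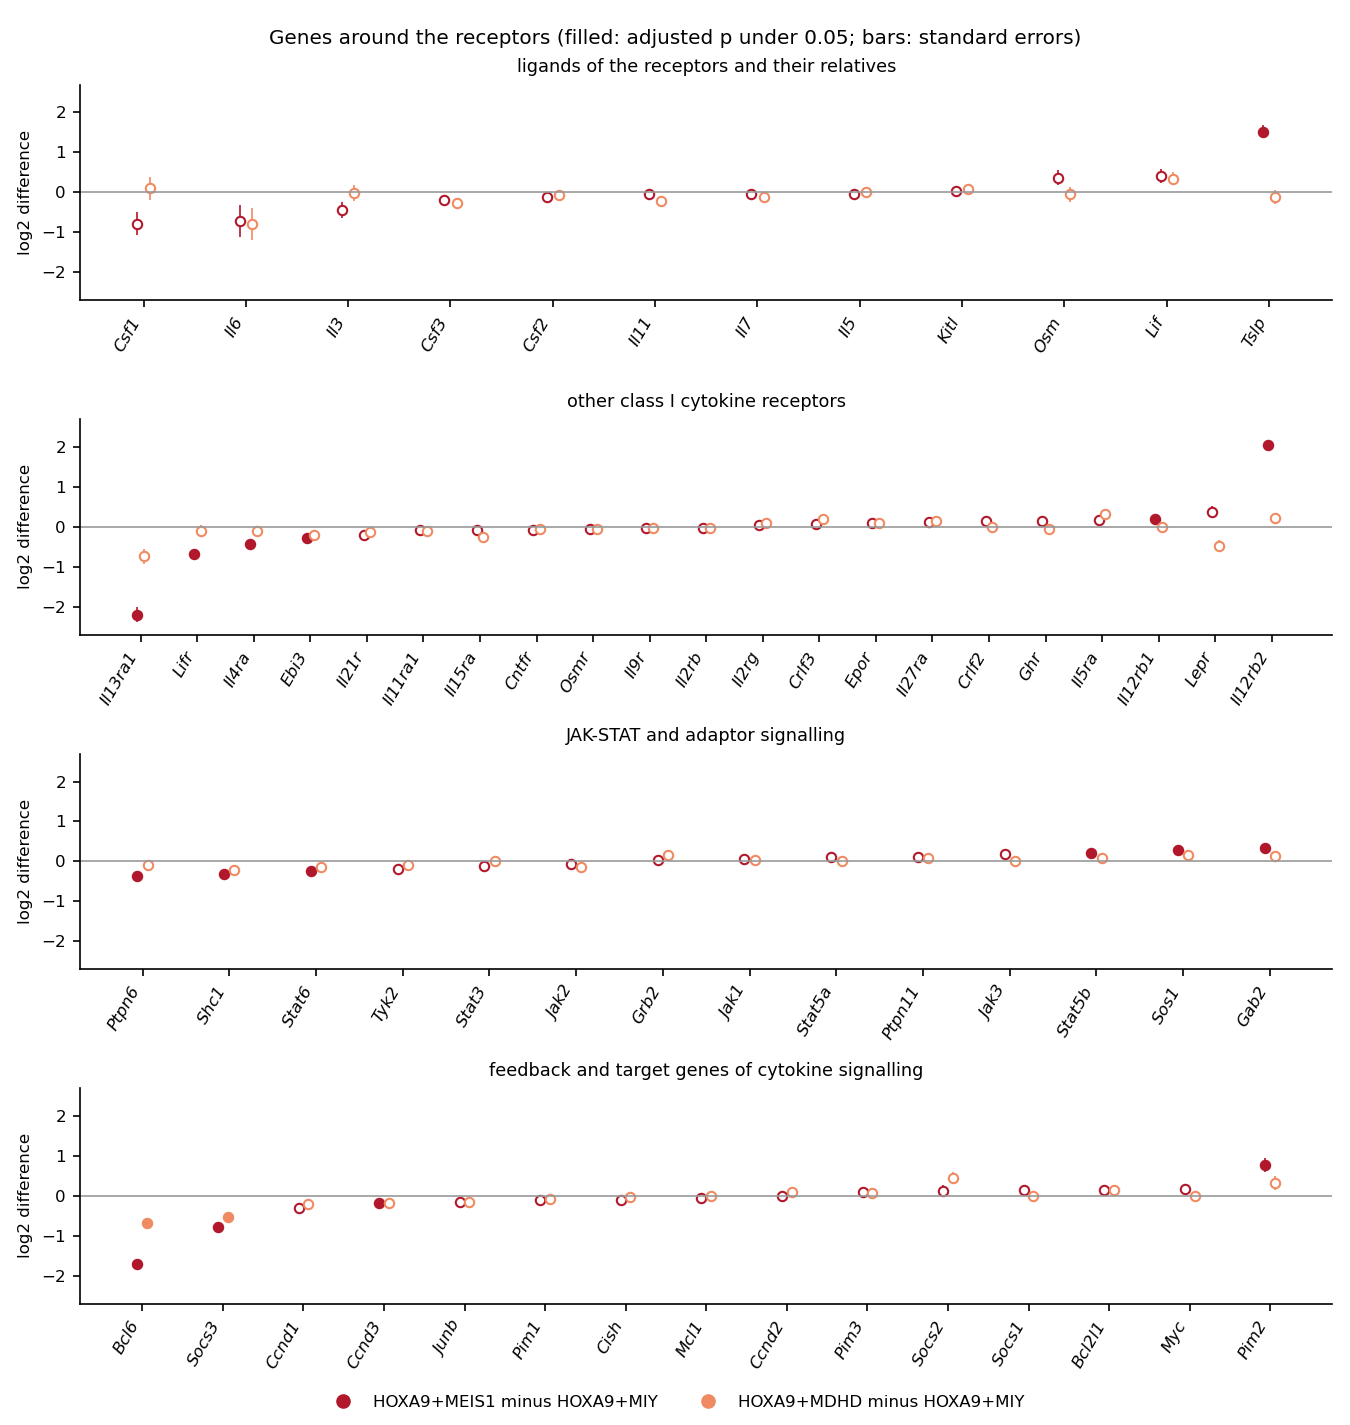
Log2 differences of the genes around the receptors from HOXA9+MIY, in HOXA9+MEIS1 (red) and HOXA9+MDHD cells (orange), with standard errors from limma. The panels are ligands, other class I receptors, JAK-STAT and adaptor genes, and feedback and target genes, each ordered by the HOXA9+MEIS1 difference, with filled points at an adjusted p under 0.05. Il13ra1 and Bcl6 are the lowest and Il12rb2 and Tslp the highest points of the 4 panels.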

How the data were processed

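Total RNA of 12 samples was biotinylated for Affymetrix mouse exon arrays. Per the submitters' processing notes, RMA and Affymetrix Expression Console were used by the authors. Their versions are not given in the sources used here. The deposited table gives 1 log2 value for each probe set and array, with array medians between 6.258 and 6.301. Genome build and annotation version are not given in the sources used here. Precision is limited by the number of arrays.

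Of 1256831 probe sets, 318760 named 1 gene symbol in the platform annotation. Those that named several (6684) or none (931387) were left out of gene values. A gene's value was the median polish of its probe sets whose mean over the 12 arrays exceeded the 50th percentile. A linear model with condition and week over 12 arrays left 8 residual degrees of freedom and was fitted in R 4.3.3 by limma 3.58.1, using lmFit and a trended eBayes, with two-sided tests. The p-values were Benjamini-Hochberg adjusted over all 20711 genes. Interaction terms and single probe sets (adjusted over 318760) were fitted likewise. The fit was tested on simulated data. Errors after ± are standard errors unless given as SD.

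The members and the 16 gene lists were chosen with earlier results of these data known. Named genes were the 8 members, Hoxa9 and Meis1, and up to 4 called genes with the largest change per list. To these were added the 3 genes nearest to each called member, clone, model and RNA names left out. Named probe sets were those of the largest and smallest absolute difference above the dim level in a gene, and any whose call ran against the gene's. Il3, Il6, Csf2, Csf3, Ebi3, Cish, Socs1, Socs2 and, between the constructs, Il4ra fall outside that rule and were named after their values were seen. Between weeks the same holds for Myc, Ccnd2, Bcl2l1, Ptpn11, Grb2, Sos1 and Tyk2. Alternatives covered the filter, the gene summary, normalization, the week term, the arrays fitted, the spread estimate, blocks by replicate number and leaving out each array. Promoters were searched with Python 3.11.15, plots drawn with matplotlib 3.10.9.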

Additional observations from a re-analysis of the deposited data

Results flagged for a closer look

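In the 24 groups of 4 arrays formed by the 8 genes and 3 conditions, 2 held a value far from the others by Dixon's 95% criterion for 4 values. Chance alone gives about 1 such group in 20. Il6ra in HOXA9+MEIS1 cells read 8.955 on replicate 2 of week 4, and the next value of that condition was 8.699. This gap was 0.861 of the range of the 4 arrays. Il7r in HOXA9+MDHD cells read 7.907 on replicate 2 of week 4, where the next value was 7.083 and the gap 0.911 of the range. That HOXA9+MDHD array is the one whose monocyte and macrophage markers stood apart from the other HOXA9+MDHD arrays.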

How the results depend on the processing

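The calls of Il6ra, Il6st, Csf3r and Csf2ra in HOXA9+MEIS1 against HOXA9+MIY held with any 1 array left out. The other comparisons depended more on the fit. In HOXA9+MDHD against HOXA9+MIY, 0 of the 8 genes were called without a week term, 1 with these conditions alone and 0 on week 4 arrays alone, and 1 to 4 with 1 array left out. In HOXA9+MEIS1 against HOXA9+MDHD, 1 was called without a week term, 1 with the conditions alone, 1 on week 3 arrays and 0 on week 4 arrays alone, and 1 to 2 with 1 array left out. Over all alternatives 3 to 5 genes were called in HOXA9+MEIS1 against HOXA9+MIY and 4 to 7 between weeks. Without trend in eBayes, Il6st lost its call in HOXA9+MDHD against HOXA9+MIY (adjusted p = 0.052). The cause of these changes was not tested.

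Signs turned among values that were not called. Keeping dim probe sets gave Il7r -0.030 in HOXA9+MDHD against HOXA9+MIY. The mean of the probe sets gave Il3ra -0.0064 in HOXA9+MEIS1 and Csf2rb 0.011 in HOXA9+MDHD against HOXA9+MIY. Median centring gave Csf2rb 0.0048 in HOXA9+MDHD against HOXA9+MIY and Csf2ra 0.056 between weeks, and cyclic loess gave Csf2ra 0.15 and Csf3r 0.0064 between weeks. Week 3 arrays alone gave Il3ra -0.039 and Csf2rb2 -0.011 in HOXA9+MEIS1 against HOXA9+MIY. Week 4 arrays alone gave Il3ra 0.023, Csf2rb 0.0055 and Il7r -0.0094 in HOXA9+MDHD against HOXA9+MIY. With 1 array left out, HOXA9+MEIS1 minus HOXA9+MIY ran from -0.021 to 0.076 for Il3ra and -0.0046 to 0.052 for Csf2rb2, and HOXA9+MDHD minus HOXA9+MIY from -0.025 to 0.0022 for Csf2rb and -0.11 to 0.20 for Il7r.

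Same-numbered arrays of a week showed no common deviation by the criterion used (6 correlations from -0.112 to 0.133, 1 of them over 0.1), and the labels do not say whether a number marks a shared experiment. They were not treated as pairs. With week and number as a replicate block, 4, 4, 2 and 5 of the 8 genes were called in HOXA9+MEIS1 against HOXA9+MIY, HOXA9+MDHD against HOXA9+MIY, HOXA9+MEIS1 against HOXA9+MDHD and between weeks. The counts were the same with condition and number as a random replicate block, and a fixed block of this kind, chosen after seeing the data, gave 5 between weeks. Over all genes, HOXA9+MDHD against HOXA9+MIY had 396 calls, 612 with the random replicate block, 992 without replicate 2 of week 4 in HOXA9+MDHD, 37 without a week term and 11 on week 4 arrays alone.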

Other observations

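Genes of the cytokine pathway also differed between weeks. Of 15 feedback and target genes 8 were called higher and 3 lower at week 4, where 39.8% of all genes were called. Pim2 (0.84 ± 0.143, limma adjusted p = 0.00042), Junb (0.78 ± 0.0683, limma adjusted p = 3.23e-06) and Bcl6 (0.63 ± 0.0855, limma adjusted p = 7.53e-05) were among the rises. The falls were Myc (-0.39 ± 0.0442, limma adjusted p = 1.78e-05), Ccnd2 (-0.38 ± 0.0517, limma adjusted p = 7.36e-05) and Bcl2l1 (-0.19 ± 0.0519, limma adjusted p = 0.01). Cish, an inhibitor induced by STAT5, was higher by 0.37 ± 0.0504 (limma adjusted p = 7.68e-05) and Socs1 by 0.35 ± 0.0553 (limma adjusted p = 0.000245). Of 14 JAK-STAT and adaptor genes 6 were higher and 4 lower. Among the rises were Jak2 at 0.54 ± 0.0813 (limma adjusted p = 0.000167), Gab2 at 0.45 ± 0.0658 (limma adjusted p = 0.000142) and Stat5b at 0.33 ± 0.0379 (limma adjusted p = 1.78e-05). Those lower were Ptpn11, Grb2, Sos1 and Tyk2, at -0.22 to -0.19. Tslp was higher at week 4 by 0.55 ± 0.137 (limma adjusted p = 0.00595). Cish, Socs1 and the genes named as lower were chosen after their values were seen. None of these week differences is given under the other scalings, and cyclic loess took Csf3r between weeks from -0.20 to 0.0064. Whether falls of the size of -0.22 to -0.19 hold under another scaling was not tested.

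Of 10 stem and early progenitor markers 6 were called higher and 2 lower in HOXA9+MEIS1 against HOXA9+MIY cells, and 5 higher and 1 lower in HOXA9+MDHD against HOXA9+MIY cells. Of all 20711 genes, 1096 were called higher and 1150 lower in the HOXA9+MEIS1 comparison, and 189 higher and 207 lower in the HOXA9+MDHD comparison. Both comparisons share the HOXA9+MIY arrays. Of 5 primary granule markers 2 were lower in HOXA9+MEIS1 and 1 in HOXA9+MDHD cells, beside 5.55% and 0.999% of all genes.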
